A study of Mus musculus with 6 samples.

Results

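The Plac8 and Cxcl13 fibroblasts of mouse dorsal skin were 7183 cells in 6 single-cell RNA sequencing libraries, out of 20027 fibroblasts and 50850 cells kept in all. They were chosen by their own measured values. A cell counted as a fibroblast when Col1a1, Col1a2, Col3a1 and Dcn together reached 20 UMIs (tags of single captured molecules) per 10000 UMIs of that cell, a unit written cp10k, when it held no Ptprc, and when its keratins (Krt5 and Krt14, under 10 cp10k) and muscle genes (Acta2 and Tagln, under 20 cp10k) were low. Among those fibroblasts a member had at least 3 cp10k of Plac8 plus Cxcl13 and less than 3 cp10k of Coch, Dkk2 and Crabp1 summed. Plac8 lies at chr5:100553725-100572245 on the minus strand and Cxcl13 at chr5:95956951-95961068 on the plus strand (GRCm38, both protein-coding). Because the choice used these genes, their levels are given below as a description.

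The study asked what an allosteric inhibitor of the phosphatase SHP2, the compound SHP099, changes in imiquimod-treated skin. All mice were female C57BL/6J, aged 8 to 10 weeks. Mice of the Sham group had no treatment. In the IMQ group 62.5 mg of 5% imiquimod cream, a TLR7 agonist that gives a psoriasis-like inflammation, was spread on shaved back skin each day for 4 days, and the mice were killed 1 day after the last dose. IMQ+SHP099 mice received the same cream and SHP099 at 10 mg/kg by gavage each day for 4 days. Each group had 2 libraries, and several mice were pooled in each library, so n = 2 and the spread between mice is not seen. Every p-value below measures the spread between these libraries. In the values that follow, the libraries are given in the order Sham replicates 1 and 2, IMQ replicates 1 and 2, and IMQ+SHP099 replicates 1 and 2.

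Dermal fibroblasts fall into layers. Papillary cells lie under the epidermis and answer to Wnt signals, dermal papilla cells instruct the hair follicle, and reticular and adventitial cells occupy the deep dermis and the sheaths of vessels and fascia. Adventitial or universal fibroblasts are marked in many tissues by Pi16, Dpp4, Cd34, Ly6c1 and Clec3b. Plac8 encodes a small cysteine-rich protein, and Cxcl13 a chemokine that attracts B cells through the receptor CXCR5. Fibroblasts in inflamed skin answer IL-17, TNF and interferon with chemokines, acute-phase proteins and matrix.

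Members held 3512179 to 27595937 UMIs per library, and their median depth per cell was 6069.5, 9827, 10326, 9978, 7172.5 and 5987 UMIs. Sham replicate 1 stood apart from the others by keratinocyte RNA. In its members 9 keratinocyte markers summed to 3490 CPM (UMIs of a gene per 1000000 UMIs of the population in that library), against 166 to 440 CPM in the other 5 libraries, and 21.3% of its members had over 10 cp10k of them, against 0.718% to 8.37% elsewhere. None of these 9 markers was at 0 in members. Between 14 and 43 barcodes were shared by any pair of libraries, and 0 or 1 of them were members in both. Scrublet marked 0% to 3.13% of the cells of a library as doublets and marked none in 3 libraries, which is too few to rely on, so no cell was removed by it. Only 48 members had a score over 0.25.

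Clec3b, a plasminogen-binding lectin, and Igfbp6, an insulin-like growth factor binding protein, were not used in the choice of cells and are described here. The population and its markers were chosen with earlier results of these data known, so these levels are no independent check of the label. The Clec3b level in members was 2679, 2546, 718, 879, 979 and 1316 CPM. In fibroblasts with at least 3 cp10k of Coch, Dkk2 and Crabp1 (5577 cells, named Coch fibroblasts here) it was 124 to 598 CPM, and in the remaining 7267 fibroblasts 225 to 1028 CPM. The Igfbp6 level in members was 5818, 3694, 1169, 1408, 2138 and 2018 CPM, against 263 to 1530 CPM in Coch fibroblasts and 733 to 2636 CPM in the remaining ones. Within each library members were the highest of the 3 populations for both genes.

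**Figure D1:**
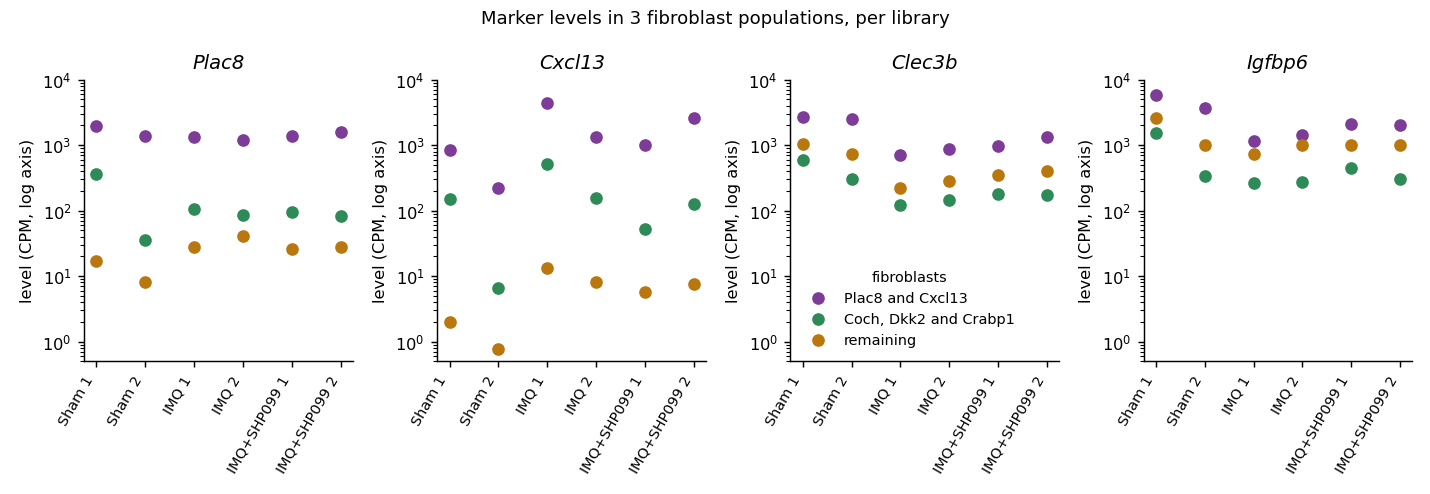
Levels of Plac8, Cxcl13, Clec3b and Igfbp6 (CPM, log axis) in each of 6 libraries, in Plac8 and Cxcl13 fibroblasts, in Coch, Dkk2 and Crabp1 fibroblasts and in the remaining fibroblasts of the gate. Plac8 and Cxcl13 chose the cells, whereas Clec3b and Igfbp6 were not used in that choice and were highest in members in all 6 libraries. This is a description and no independent check.

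The other adventitial genes are a description with no test, since the cells were chosen by expression. The share of all genes that were higher or lower in all 6 libraries is not given. The list counts below therefore have no background to be read against. Of 19 adventitial genes 14 were higher in members than in the rest of the gate in all 6 libraries and 0 were lower in all 6. Dpp4, a dipeptidyl peptidase of the cell surface, was at 253, 369, 113, 214, 88.2 and 288 CPM. Pi16 was nearly level, with a median log2 ratio of members to the rest of 0.47, against 2.5 for Dpp4 and 2.61 for Anxa3. Complement genes were high as well, and 10 of 11 were above the rest in all 6 libraries, with C3 at 2055 to 5631 CPM and C4b at 976 to 1793 CPM. Papillary and dermal papilla genes were low. Of 9 papillary genes 8, and of 8 dermal papilla genes 6, were lower in members in all 6 libraries. The rest of the gate includes the Coch fibroblasts, which the choice kept out of members, so the choice may bear on this. Preadipocyte genes were not low, and of 11 genes 3 were higher and 0 lower in members in all 6 libraries. The 15 genes that stood highest over the rest of the gate began with Akr1c18, a steroid reductase (median log2 ratio 4.11), Smpd3, a neutral sphingomyelinase (3.90), Chrdl1, a BMP antagonist (3.65), Rtl3 (3.22) and Agt, angiotensinogen (3.12), and among the others were Inmt, Opcml, Irf4, Sfrp4, Nexmif, Phf11b, Snhg11, Npr1 and Prkg2. The 10 lowest were Gldn (−5.13), the Wnt inhibitor Wif1 (−4.86), the BMP antagonist Grem1 (−4.69), Fcgr2b, Megf6, Fmod, Lamc3, Trps1, Pianp and Col7a1 (−4.05).

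The threshold cut a continuous range. Members just inside it, at 3 to 4 cp10k, numbered 19, 27, 52, 130, 25 and 54. Fibroblasts just outside, at 2 to 3 cp10k, numbered 17, 26, 55, 133, 39 and 77. Both counts hold only cells under the limit on Coch, Dkk2 and Crabp1. In 15 to 51 members of a library a lone UMI of either gene carried the call. A further 380 fibroblasts were high for both gene sets and were counted with the Coch fibroblasts, so that those hold some Plac8.

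Most members carried Plac8, and the part with Cxcl13 varied. The Plac8 level was 1967, 1387, 1335, 1213, 1398 and 1569 CPM. The Cxcl13 level was 856, 225, 4428, 1340, 1009 and 2624 CPM, a wider range with IMQ replicate 1 highest and Sham replicate 2 lowest. Cells with UMIs of both genes made up 54.6%, 31.9%, 58.2%, 58.3%, 41.4% and 70.3% of members, and cells with Cxcl13 alone 0.988% to 6.71%. With each cell thinned to 3000 UMIs, Plac8 was seen in 12.8% to 50.2% of the fibroblasts of a library and in 0.367% to 1.42% of keratinocytes, which should lack it. Cxcl13 was seen in 3.19% to 36.6% of fibroblasts and 0% to 0.793% of keratinocytes. Members held 62.8% to 79.2% of all Plac8 UMIs of a library and 68.5% to 93.9% of all Cxcl13 UMIs.

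Cells with both genes and cells with Plac8 alone differed in further genes, again as a description. Smpd3 and Akr1c18 were higher where both were present (median log2 ratios 1.85 and 1.76). Thbs4, a matricellular thrombospondin of tendon and injured tissue, was lower there (−3.68), followed by Hmcn2, Cpxm2, Ramp1, Fbln7, Mgp, Angptl1, Ndufa4l2, Myoc and Cilp. In Plac8-only cells Thbs4 was at 19.9, 60.9, 843, 972, 317 and 666 CPM, and in cells with both genes at 1.93, 0.727, 51.6, 126, 2.65 and 64.4 CPM. The Plac8-only cells were the shallower ones in every library, at medians of 5066 to 9789 UMIs against 6024 to 11367, and the part of depth in this split was not tested.

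The first comparison asked whether the population changed in size with imiquimod. Members were 46.3% (95% exact binomial interval 43.3% to 49.3%), 11.7% (10.6% to 12.8%), 34.7% (33.0% to 36.3%), 42.5% (41.3% to 43.8%), 28.6% (26.6% to 30.7%) and 47.5% (46.0% to 49.0%) of the fibroblasts. The intervals cover counting error only. The Sham libraries lay on either side of both IMQ libraries, and the IMQ+SHP099 libraries did so as well. The group means were 29.0% ± 24.5, 38.6% ± 5.57 and 38.1% ± 13.4 (SD, n = 2). IMQ exceeded Sham by 9.64 percentage points, less than the pooled SD of 17.8 points (two-sided exact permutation test, p = 1, where the smallest p of 2 against 2 is 0.333). Without Sham replicate 2 the difference was −7.67 points. IMQ+SHP099 differed from IMQ by −0.53 points (exact permutation test, p = 1), and by 8.92 points without IMQ+SHP099 replicate 1.

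The denominator mattered for this comparison. Of all kept cells members were 5.85%, 4.92%, 15.2%, 24.4%, 6.05% and 28.2%, and here the Sham and IMQ libraries did not overlap (difference 14.4 points, exact permutation p = 0.333, the smallest possible). Of kept cells under the keratin limit, a denominator chosen after seeing the data, they were 14.5%, 5.99%, 18.8%, 26.7%, 19.5% and 30.2% (12.5 points, exact permutation p = 0.333). Fibroblasts were 12.6% to 59.3% of the kept cells of a library, so these shares move with how much of each other cell type a library held.

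**Figure D2:**
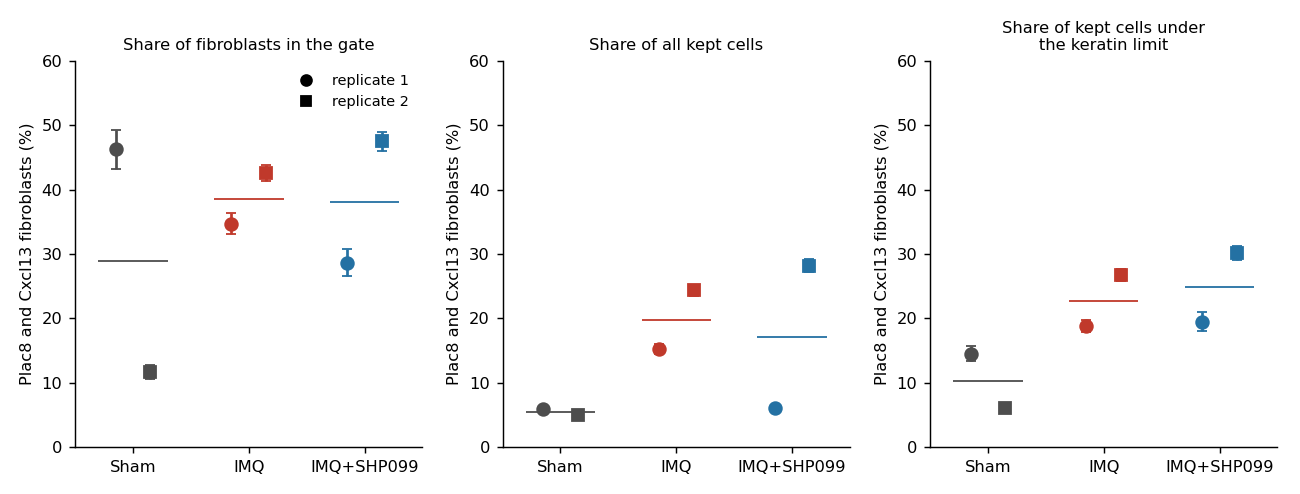
Share of Plac8 and Cxcl13 fibroblasts (%) in each library, of fibroblasts, of all kept cells and of kept cells under the keratin limit. Points are libraries (circle replicate 1, square replicate 2) with 95% exact binomial intervals, and lines are group means of n = 2. Of fibroblasts the Sham libraries (46.3% and 11.7%) span the IMQ libraries, whereas of all kept cells they lie below them.

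The second comparison asked which genes of these cells differ between IMQ and Sham skin. UMIs were summed over the members of each library and fitted with edgeR's quasi-likelihood test over 12623 genes, with Benjamini-Hochberg adjusted p under 0.05 as the threshold. IMQ differed from Sham in 42 genes (0.333% of those tested), of which 24 were higher (0.19%) and 18 lower (0.143%) in IMQ. At an unadjusted p under 0.05 there were 425 higher (3.37%) and 909 lower (7.2%) genes. All 42 were separated, with no library of IMQ within the range of Sham, as were 36.5% of all genes tested. The count rests on few libraries. It was 4 without Sham replicate 1, 149 without Sham replicate 2, 18 without IMQ replicate 1, and 0 without either IMQ+SHP099 library or with the Sham and IMQ libraries alone, and DESeq2 called 469 (145 higher and 324 lower). Without members that held over 10 cp10k of another cell type's markers, an alternative added after seeing the data, it was 92.

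**Figure D3:**
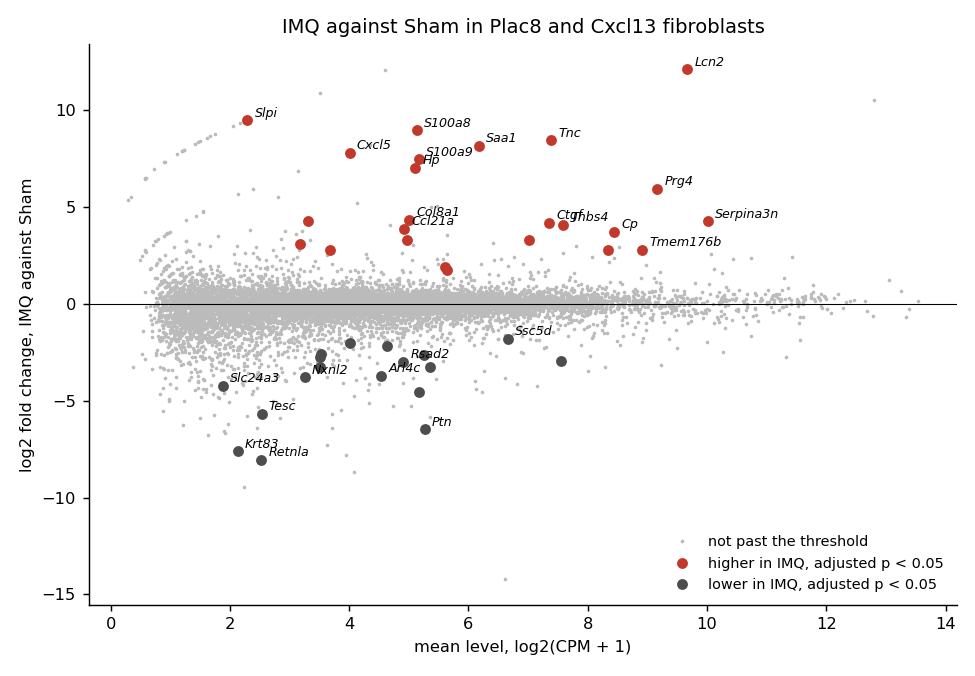
The log2 fold change of IMQ against Sham (edgeR) in Plac8 and Cxcl13 fibroblasts, plotted against the mean level of the 4 libraries as log2(CPM + 1), with 1 point per gene of 12623. The 24 higher and 18 lower genes are coloured, and Lcn2 has the largest change among the genes called higher (12.08).

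The genes that rose included 3 of the acute-phase and IL-17 list, secreted defence proteins, with Lcn2 the largest change of all 24. Lcn2, a siderophore-binding protein of the innate defence (chr2:32384633-32388252, minus strand), was at 0, 0.773, 2357, 891, 1387 and 413 CPM. It rose from 3 UMIs in both Sham libraries to 56994 in IMQ, a log2 fold change of 12.08 (SE 1.26, edgeR adjusted p = 0.020) and a ratio of summed UMIs per UMI of 3398 with a 95% counting interval of 1163 to 16476. Saa1, an acute-phase apolipoprotein, was at 0.569, 0.515, 222, 63.2, 91.1 and 43.6 CPM (log2 fold change 8.13, SE 0.99). The haptoglobin gene Hp was at 0.569, 0.515, 89.1, 43.3, 18.9 and 26.2 CPM (7.02, SE 0.62). All 4 libraries with imiquimod were far above both Sham libraries for these genes. Relative to all cells of the same treated library, the level in members was 365%, 199%, 852% and 135% for Saa1 and 62.3%, 35.3%, 437% and 31.9% for Hp. The protease inhibitor Serpina3n, at 102, 115, 2548, 1351, 1969 and 987 CPM, rose by a log2 fold change of 4.25 from an already clear Sham level.

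Of the 17 IL-17 and acute-phase genes on the list 3 rose (Lcn2, Saa1 and Hp) and 0 fell, their median log2 fold change was 0.99 against −0.01 over all genes, and 16 of 17 were above 0 against 49.3% of all genes. At an unadjusted p under 0.05 there were 11 higher and 1 lower, against 3.37% and 7.2% of all genes. Without Sham replicate 1 the median was 1.64 and 0 were called. Saa3 was the most abundant by far, at 17.9, 0.773, 21216, 7152, 14368 and 4807 CPM, but did not pass (log2 fold change 10.52, SE 1.66, adjusted p = 0.06), and the Sham libraries differed strongly from each other. Steap4, a metalloreductase, gave 78.9, 167, 622, 523, 409 and 469 CPM (2.36, edgeR adjusted p = 0.052). The transcription factor gene Cebpd was at 381, 189, 1011, 795, 820 and 1167 CPM. The interleukin 17 receptor genes Il17ra and Il17rc were present in every library, at 93.8 to 120 CPM and 24.7 to 41.0 CPM. The 17 listed genes summed to 4627, 5012, 33650, 16621, 23603 and 15837 CPM in members. In the other fibroblasts of the gate they summed to 4100, 3667, 30018, 17679, 42065 and 20883 CPM, so the rise was not limited to members.

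The sequences before the RefSeq starts of Lcn2 and Saa1 are shown because both genes belong to the acute-phase group and hold a C/EBP motif there. They are the 250 bases upstream of the RefSeq start on GRCm38.p6, at chr2:32387740-32387989 and chr7:46742981-46743230, both minus strand, with the motif TTGCNNAA (searched on both strands) in capitals:
Lcn2: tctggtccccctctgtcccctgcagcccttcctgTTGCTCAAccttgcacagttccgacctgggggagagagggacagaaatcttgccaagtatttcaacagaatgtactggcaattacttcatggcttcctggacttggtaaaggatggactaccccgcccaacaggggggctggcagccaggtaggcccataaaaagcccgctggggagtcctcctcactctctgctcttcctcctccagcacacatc
Saa1: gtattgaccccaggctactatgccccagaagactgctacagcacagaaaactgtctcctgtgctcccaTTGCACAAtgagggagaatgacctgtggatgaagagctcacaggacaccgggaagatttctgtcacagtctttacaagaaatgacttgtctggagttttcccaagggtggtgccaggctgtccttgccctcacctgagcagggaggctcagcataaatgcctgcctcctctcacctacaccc
This motif is in 10.8% of all 27025 such promoters. Only 13 of the 17 listed genes and 15 of the 24 genes that rose had a promoter in the table, under 80%, so no share was drawn for either set. A match is a run of letters and not a measured binding site. The Lcn2 window lies inside the gene span given above, which begins further upstream than the RefSeq start.

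Neutrophil-type genes and a neutrophil chemokine were also among those that rose. S100a8 was at 0.285, 0, 49.8, 86.8, 145 and 90.4 CPM (log2 fold change 8.94, SE 0.78, ratio of sums 551, interval 98.8 to 21764) and S100a9 at 0.854, 0, 57.6, 81.0, 163 and 78.0 CPM (7.44, ratio 180, interval 61.7 to 876). The 6 markers of the neutrophil list summed to 0 to 1.14 CPM in Sham, 112 to 175 in IMQ and 171 to 312 in IMQ+SHP099, none was at 0 in all libraries, and Csf3r, the G-CSF receptor that defines neutrophils, was at 0 to 0.473 CPM. In the other fibroblasts of the gate S100a8 was at 67.2 to 176 CPM in the treated libraries. Levels of S100a8 in members were 0.616% to 1.64% of its level over all cells in the 4 treated libraries. At 3000 UMIs per cell S100a8 was seen in 14.8% to 36.0% of treated members and 80.8% to 95.1% of keratinocytes of the same libraries, and whether free RNA gave these UMIs was not tested. For Lcn2 the shares were 66.7%, 43.4%, 46.0% and 20.7% of members and 42.4% to 51.6% of keratinocytes. Its level in members was 187%, 102%, 239% and 62.5% of that over all cells. Members held 37.4%, 41.1%, 19.4% and 26.3% of the Lcn2 UMIs of the treated fibroblasts. In each of these libraries that was less than their part of all UMIs of the fibroblasts. Cxcl5, a ligand of CXCR2 that draws neutrophils, was at 0, 0.258, 35.0, 25, 26.5 and 30.6 CPM (7.79, ratio 210, interval 37.5 to 8286). Of the Cxcl5 UMIs of the treated fibroblasts members held 23.1%, 18.1%, 8.84% and 28.1%, again less than their part of all UMIs. The Cxcl5 level in members was 157%, 71.0%, 279% and 103% of that over all cells.

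Of 15 listed chemokines tested only Cxcl5 passed, and the Ccl21a entry given below was not among these 15. The list's median log2 fold change was 0.08, a value that rests on the Sham libraries. It was 1.53 without Sham replicate 1 and −0.16 without Sham replicate 2, and ran from −0.36 to 1.53 over 18 alternatives. Cxcl12, which binds CXCR4, was at 351, 725, 1752, 1606, 1317 and 1155 CPM (1.78, adjusted p = 0.11), and Cxcl14 at 88.8, 362, 856, 706, 1005 and 490 CPM (adjusted p = 0.23). The monocyte attractant Ccl2 was highest in Sham replicate 1, at 1297, 163, 457, 503, 1087 and 435 CPM. No cytokine of 17 passed. Il6 was at 46.1 to 162 CPM and Csf3, the G-CSF gene, at 0.285, 0.258, 18.2, 5.40, 3.78 and 12.9 CPM (5.50, adjusted p = 0.10). The IL-1 family alarmin Il33 was at 13.7, 91.4, 155, 95.3, 246 and 112 CPM (adjusted p = 0.54).

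Several matrix genes rose. Tenascin C (Tnc), a glycoprotein of healing tissue, was at 0, 2.06, 474, 191, 96.3 and 157 CPM (log2 fold change 8.42, SE 0.91). Prg4, lubricin, was at 25.9, 11.3, 1407, 854, 867 and 551 CPM (5.93, SE 0.70). Ctgf, a matricellular target of TGF-beta and YAP signals, was at 14.2, 22.4, 369, 244, 117 and 156 CPM (4.18, SE 0.38). For each gene the lowest treated library was above the highest Sham library. Members were not the main source of Tnc, and held 14.3%, 11.2%, 1.84% and 10.7% of the Tnc UMIs of the treated fibroblasts, at 96.1%, 41.4%, 56.7% and 37.8% of its level over all cells. Thbs4 (9.11, 39.2, 290, 424, 159 and 216 CPM) and the short-chain collagen gene Col8a1 (1.42, 4.89, 52.6, 65.2, 24.4 and 30.7 CPM) rose by 4.06 and 4.32.

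Of 15 collagen genes 2 rose, Col8a1 and Col12a1 (19.6, 31.2, 238, 224, 175 and 152 CPM, log2 fold change 3.29), and the median was −0.48. Of 19 matrix glycoproteins Tnc alone passed and the median was 0.25. Fibronectin (Fn1) was at 1112, 3119, 293, 388, 337 and 535 CPM (−2.48, adjusted p = 0.08), with both Sham libraries above all treated ones. Of 22 tested proteases and inhibitors of matrix 0 passed. The tissue inhibitor Timp1 was at 76.6, 104, 552, 342, 798 and 241 CPM and Timp3 at 1284, 2012, 300, 491, 450 and 408 CPM (adjusted p = 0.15 and 0.08).

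Other genes that rose included Cp (ceruloplasmin), Masp1 (a lectin-pathway protease), Tmem176a, Tmem176b, St6galnac5, Cthrc1, Angptl1, S100g, Slpi and a Ccl21a entry. Slpi, a leukocyte protease inhibitor named here after its values were seen, had 0 UMIs in Sham and 8.07, 7.54, 7.81 and 4.69 CPM in the treated libraries. The Ccl21a entry (ENSMUSG00000094686) has near-identical paralogs that share its reads, and its value is uncertain.

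The genes that fell included interferon-stimulated ones. Rsad2, viperin, an antiviral enzyme (chr12:26442746-26456452, minus strand), was at 52.4, 51.0, 3.71, 8.66, 15.6 and 15.3 CPM and fell by 3.00 on the log2 scale (SE 0.40, adjusted p = 0.037). Ifi44 was at 15.9, 22.2, 1.16, 2.46, 3.55 and 5.21 CPM (−3.27), and Gbp3, a guanylate-binding protein, at 34.2, 45.1, 7.42, 9.20, 9.46 and 15.7 CPM (−2.16). Oas2 and Dhx58, sensors of double-stranded RNA that were on no list, fell as well (−2.60 and −2.02). In all 5 genes the Sham libraries were the highest pair, IMQ the lowest pair, and both IMQ+SHP099 libraries lay between them.

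Of 20 listed interferon-stimulated genes 3 fell (Ifi44, Rsad2 and Gbp3) and 0 rose, all 20 had a log2 fold change under 0, and the median was −1.70 against −0.01 over all genes. At an unadjusted p under 0.05 there were 19 lower, the exception being Irf1, against 7.2% of all genes. Isg15, a ubiquitin-like modifier, was at 626, 278, 53.6, 89.0, 154 and 94.7 CPM (−2.70, adjusted p = 0.11), Ifi27l2a at 6873, 1974, 500, 899, 1552 and 1621 CPM (−2.74, adjusted p = 0.17) and Bst2, tetherin, at 1686, 711, 201, 297, 468 and 458 CPM (−2.31, adjusted p = 0.14). Both Sham libraries were above both IMQ libraries for each. The 20 genes summed in members to 10595 and 4590 CPM in Sham and 1236 and 1900 CPM in IMQ. In the other fibroblasts of the gate they summed to 2599 and 1335 CPM in Sham and 663 and 953 CPM in IMQ, so the fall was not limited to members. The median over the list stayed between −1.96 and −1.30 in 18 alternative settings, and 0 to 16 of the 20 were called lower. It was −1.30 without Sham replicate 1, where 0 were called lower, and −1.77 without cells holding another cell type's markers, where 5 were. The 10 class I antigen presentation genes had a median of −0.66 with 0 called, and the receptor genes Ifnar1 and Ifngr1 were at 27.9 to 42.3 and 160 to 304 CPM.

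The promoter of Rsad2 is shown since this gene fell and its 250 bases upstream of the RefSeq start (GRCm38.p6, chr12:26456453-26456702, minus strand) hold the core of an interferon-stimulated response element (ISRE core, searched on both strands), in capitals:
Rsad2: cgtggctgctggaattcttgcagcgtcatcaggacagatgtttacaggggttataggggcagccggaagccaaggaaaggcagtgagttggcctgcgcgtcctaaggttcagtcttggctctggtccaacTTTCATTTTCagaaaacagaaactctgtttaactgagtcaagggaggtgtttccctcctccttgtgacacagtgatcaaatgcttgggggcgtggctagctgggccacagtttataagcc
Of the 20 listed genes 16 had a promoter in the table, and 10 of these (62.5%) held the core on either strand, against 3.46% of all 27025 promoters. The promoter of Ifi44 held none in this window, which says only that these letters are not there.

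**Figure D4:**
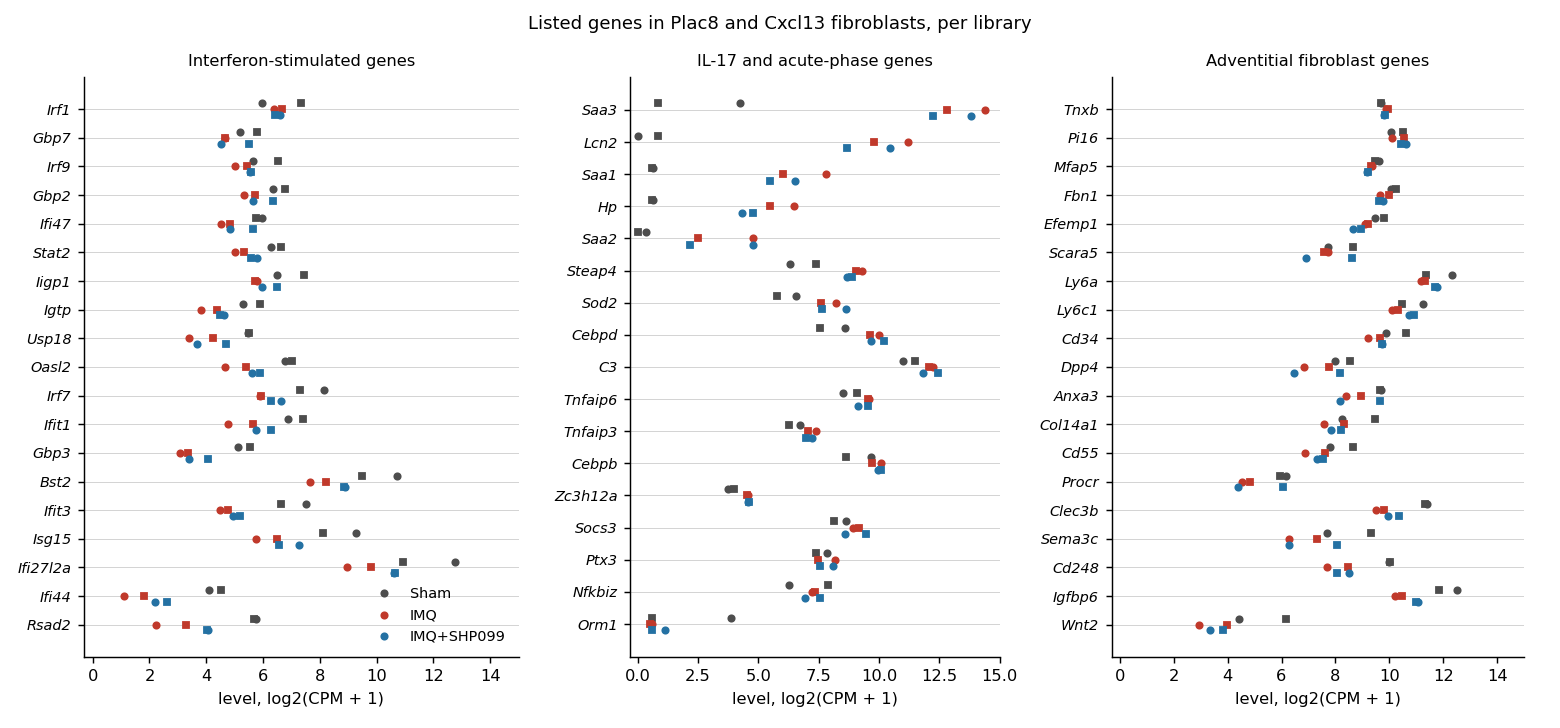
Levels of the listed interferon-stimulated, IL-17 and acute-phase, and adventitial fibroblast genes in Plac8 and Cxcl13 fibroblasts as log2(CPM + 1), with circles for replicate 1, squares for replicate 2 and colours for groups. Genes are ordered by the difference between IMQ and Sham. The Sham points lie to the right of the IMQ points for most interferon-stimulated genes and far to the left for Saa3, Lcn2, Saa1 and Hp.

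Further genes that fell were not of the interferon group. Ptn, pleiotrophin, a heparin-binding growth factor, was at 27.9, 121, 0.364, 0.978, 0.946 and 1.61 CPM (log2 fold change −6.47, SE 0.68). The 5 Schwann cell markers summed in members to 59.8 to 172 CPM in Sham, 16.7 to 22.0 in IMQ and 13.7 to 28.7 in IMQ+SHP099, none was at 0 in all libraries, and their sum was 292 and 1512 CPM in the other fibroblasts of the Sham libraries. Without members holding over 10 cp10k of another cell type's markers the log2 fold change of Ptn was −7.16. In the Sham libraries 0.199% and 1.23% of members were over that limit for Schwann markers. The part of Schwann cell RNA below the limit in the Ptn value was not tested. Nrk (49.0, 97.1, 6.91, 7.03, 2.84 and 8.14 CPM), Tmem158 (397, 268, 32.3, 53.4, 56.3 and 74.6 CPM), Arl4c, the ephrin ligand gene Efnb1 and the scavenger receptor gene Ssc5d fell by 1.81 to 3.72 on the log2 scale. Retnla and the hair keratin gene Krt83, both under 10 CPM in every library and named after their values were seen, fell to 1 UMI over both IMQ libraries. The part of the keratinocyte RNA given above in the Krt83 value was not tested.

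No gene of the adventitial list passed the test between IMQ and Sham. Of 19 genes 2 were above 0, against 49.3% of all genes tested, and the median log2 fold change was −0.84. At an unadjusted p under 0.05 there were 7 lower, against 7.2% of all genes, and 0 higher. Clec3b, Igfbp6 and Cd248 (endosialin) had log2 fold changes of −1.66, −1.88 and −1.83 (adjusted p = 0.12, 0.14 and 0.11), with both Sham libraries above all 4 treated ones in each. Pi16, at 1054, 1468, 1082, 1499, 1554 and 1380 CPM, overlapped between groups. The Wnt ligand gene Wnt2 was at 20.2, 70.3, 6.76, 14.6, 9.22 and 13.1 CPM.

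Other lists held no gene that passed. Of 10 complement genes 0 did, with a median of 0.31 and C3 at 2055, 2893, 4848, 4308, 3591 and 5631 CPM. Of 24 growth factor and binding protein genes 0 did, with a median of −0.42. Igfbp3 differed within groups, at 378, 268, 2535, 1115, 318 and 2766 CPM, and Igfbp5 was at 366, 1822, 62.3, 153, 117 and 279 CPM. The NF-kappaB (12 genes), receptor (14), immediate early (17), cell cycle (16) and glycolysis (13) lists had medians of 0.32, 0.45, 0.11, −0.46 and 0.35, and 0 called. Tlr7, the receptor of imiquimod, was at 0 to 0.473 CPM, under the filter on low counts. Mki67, a marker of dividing cells, was at 1.71, 40.4, 7.71, 2.86, 4.97 and 1.10 CPM.

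The third comparison asked what SHP099 changed in imiquimod-treated skin. edgeR called 0 of 12623 genes between IMQ+SHP099 and IMQ (0%), the smallest adjusted p was 0.9999, and DESeq2 called 0 as well. At an unadjusted p under 0.05 there were 61 higher (0.483%) and 56 lower (0.444%) genes. Ptpn11, which encodes SHP2, was at 32.5, 69.8, 52.7, 56.2, 56.3 and 48.8 CPM (log2 difference between IMQ+SHP099 and IMQ −0.01, SE 0.29). Of 16 tested genes of the SHP2 and ERK pathway 0 passed and the median was −0.03, with Dusp6, an ERK phosphatase induced by ERK, at 6.26, 13.9, 17.9, 17.6, 14.0 and 18.0 CPM and Spry4 at 6.55, 24.5, 8.73, 9.86, 7.81 and 7.63 CPM.

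The interferon list had a median log2 difference of 0.59 with SHP099, against 0.03 over all genes, and all 20 genes were above 0 against 55.2% of all genes. The 4 with an unadjusted p under 0.05 were Ifit1, Ifi44, Rsad2 and Oasl2, all higher, against 0.483% of all genes, and 0 passed. Ifit1 was at 116, 167, 26.4, 48.7, 53.5 and 77.1 CPM, with the IMQ+SHP099 values between those of IMQ and Sham. Adventitial genes had a median of 0.23 with 15 of 19 above 0, and −0.06 without IMQ+SHP099 replicate 2. The cell cycle list had a median of −1.25 with 1 of 16 genes above 0 and 0 at an unadjusted p under 0.05. Its genes were mostly low, and Top2a, a topoisomerase of dividing cells, was at 1.42, 43.0, 12.6, 4.13, 5.91 and 1.10 CPM, so the libraries of a group differed several-fold. The IL-17 and acute-phase genes had a median of 0.01, and only Hp had an unadjusted p under 0.05 (log2 difference −1.53, SE 0.39). Of the 24 genes that rose in IMQ 19 had a value under 0 here, and of the 18 that fell 13 had a value over 0. These counts use the same IMQ libraries on both sides and carry no test.

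Against Sham, IMQ+SHP099 differed in 17 genes (0.135%), 14 higher (0.111%) and 3 lower (0.0238%). All 17 were among the 42 (40.5% of the 42 and 100% of the 17), and both comparisons share the Sham libraries. Lcn2, S100a8, Cxcl5, Tnc, Hp and Prg4 were among the higher, and Ptn and Nrk among the lower. For Lcn2, Tnc and Hp the IMQ+SHP099 libraries reached 413 to 1387, 96.3 to 157 and 18.9 to 26.2 CPM, and those of IMQ 891 to 2357, 191 to 474 and 43.3 to 89.1 CPM. Others of the 17 had group means that were higher with SHP099 or nearly level. The means of IMQ+SHP099 and IMQ were 118 and 68.3 CPM for S100a8, 120 and 69.3 CPM for S100a9 and 28.5 and 30.0 CPM for Cxcl5, and none of these genes passed between those groups. The count was 0 without either IMQ+SHP099 library, 3 without Sham replicate 1, and 37 and 41 without IMQ replicates 2 and 1.

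The last comparison asked whether imiquimod changed these cells differently from the Coch fibroblasts of the same libraries. The difference between both populations was fitted in edgeR with the library as a block. The IMQ effect differed in 54 of 13208 genes (0.409%), 30 more positive and 24 more negative in Plac8 and Cxcl13 fibroblasts. It differed in 0 (0%) for IMQ+SHP099 against IMQ, where 189 had an unadjusted p under 0.05 and DESeq2 called 1. The count of 54 was 0 without Sham replicate 2, 8 without IMQ replicate 1, 29 without IMQ replicate 2 and 94 without IMQ+SHP099 replicate 1. Coch fibroblasts numbered 131, 778, 1309, 1566, 696 and 1097, with the fewest in Sham replicate 1. A change in which cells passed the Coch, Dkk2 and Crabp1 threshold cannot be told apart here from a change within the cells, and was not tested. Against all other fibroblasts of the gate in place of the Coch fibroblasts, 66 genes passed for IMQ against Sham. Of the 54 genes, 22 were among these and 32 were not, and 52 kept their sign. Most of the 54 calls thus depended on the choice of Coch fibroblasts.

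On the positive side several genes had a high level in the Coch fibroblasts of Sham skin alone. Hhip, a Hedgehog-binding inhibitor (chr8:79965851-80058006, minus strand), was at 3.70, 19.1, 13.6, 13.2, 3.31 and 17.3 CPM in members and at 83.2, 286, 2.72, 3.18, 4.14 and 7.01 CPM in Coch fibroblasts (difference of log2 fold changes 6.21, SE 0.41, adjusted p = 0.0054). Rspo3, a Wnt agonist, was at 1.71 to 5.72 CPM in members, and at 171, 314, 14.98, 18.1, 28.2 and 12.6 CPM in Coch fibroblasts (4.98, SE 0.73). For both genes the Coch fibroblasts were high in Sham alone. Rspo3 stayed low in members in all 6 libraries. Hhip in members was above its level in Coch fibroblasts in both IMQ libraries and in IMQ+SHP099 replicate 2.

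On the negative side stood Rsad2, which was at 7.34, 6.37, 3.59, 11.3, 4.14 and 3.43 CPM in Coch fibroblasts. There the IMQ libraries lay on either side of the Sham libraries. The fall in IMQ given above was thus seen in members and not in Coch fibroblasts (difference −3.21, SE 0.29, edgeR adjusted p = 0.016). Il33 was at 4.89, 6.78, 78.1, 66.3, 128 and 51.0 CPM in Coch fibroblasts (−2.77), where the Sham libraries were the lowest pair, whereas in members Sham replicate 2 was close to IMQ replicate 2. Calcrl, the receptor of adrenomedullin and CGRP, was at 29.5 to 66.2 CPM in Sham and IMQ members and at 17.1, 22.4, 142 and 93.7 CPM in the Coch fibroblasts of those libraries.

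**Figure D5:**
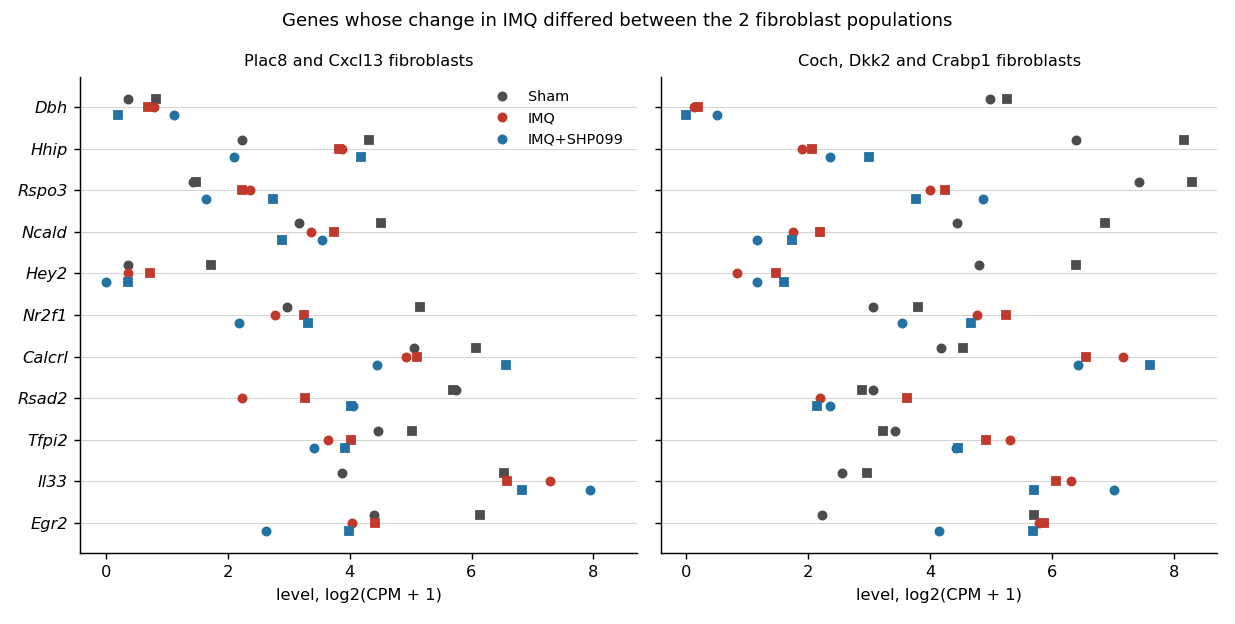
Levels as log2(CPM + 1) of 11 genes with large differences in the IMQ effect between Plac8 and Cxcl13 fibroblasts (left) and Coch, Dkk2 and Crabp1 fibroblasts (right), with circles for replicate 1 and squares for replicate 2. Dbh, Hhip, Rspo3, Ncald and Hey2 are highest in the Sham libraries of the right panel, and Rsad2 is highest in the Sham libraries of the left panel.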

How the data were processed

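Single-cell RNA sequencing (10x Genomics) was done on 6 libraries of dorsal skin, 2 each of Sham, IMQ and IMQ+SHP099. The authors deposited raw UMI counts per gene and barcode for each library, made with Cell Ranger 3.1.0 on GRCm38 (mm10), per the submitters' processing notes. The deposited counts were not normalized and cover 31053 genes. A barcode was kept if it had fewer than 100000 UMIs and 6500 genes and a mitochondrial part below 10%. Library totals ran from 53913865 to 188283327 UMIs, and intervals cover counting error only.

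The members, gene lists and tests were chosen with earlier results of these data known. Counts were summed over members per library and tested with edgeR 4.0.16 (quasi-likelihood F test, TMM scaling, its filter on low counts, all 6 libraries, group as the only term). The SE is the log2 fold change divided by the square root of F. Levels in CPM are not TMM-scaled. The difference from Coch fibroblasts was fitted over both populations with the library as a block. Shares were compared by exact permutation. Named genes were those past adjusted p of 0.05 with at least 20 CPM in the higher group, no overlap between groups and the largest fold change (12 per direction and contrast, 6 for the difference between populations), with members of 32 fixed lists as examples, of which 375 of 377 genes were found. Alternatives were DESeq2 1.42.0, its size factors, no filter, the compared groups alone, the replicate number as a block, thinning to 3000 UMIs, other thresholds, subsets of members and leaving out each library. The edgeR steps were tested on simulated data. Promoters and motifs came from RefSeq tables (GRCm38.p6). Software was R 4.3.3, Python 3.11.15, scanpy 1.11.5, numpy 2.4.6, scipy 1.17.1, pandas 2.3.3 and matplotlib 3.10.9. Some genes that the naming rule or a list selects are not reported here.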

Additional observations from a re-analysis of the deposited data

Results flagged for a closer look

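The difference between IMQ and Sham was unlike in Plac8 and Cxcl13 fibroblasts and in Coch fibroblasts in 54 genes, by edgeR's test of the difference itself. Whether the makeup of either population changed between groups was not tested. On the positive side were Dbh (8.28), Hhip (6.21), Rspo3 (4.98), Ncald (3.96) and Hey2 (3.96), given as the log2 fold change in Plac8 and Cxcl13 fibroblasts minus that in Coch fibroblasts. Dbh, dopamine beta-hydroxylase, was under 1.2 CPM in all members, and in Coch fibroblasts at 30.6 and 37.5 CPM in Sham and 0.0876 and 0.141 CPM in IMQ. On the negative side were Nr2f1 (−3.37), Calcrl (−3.29), Rsad2 (−3.21), Tfpi2 (−3.08), Il33 (−2.77) and Egr2 (−2.38). Nr2f1, a nuclear receptor, was at 6.83, 34.8, 5.82 and 8.55 CPM in the Sham and IMQ members, and at 7.34, 12.9, 26.4 and 37.0 CPM in the Coch fibroblasts of those libraries. Without Sham replicate 2 none of these genes passed, since the count was 0.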

How the results depend on the processing

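Counts of genes past adjusted p of 0.05 moved with the setting, and the cause was not tested. For IMQ against Sham (42) they were 469 with DESeq2 (30.9% of them higher, against 57.1%), 939 with no filter on low counts, 0 with the groups compared alone, 79 after thinning to 3000 UMIs, 77 in members with no Cxcl13 UMI and 92 without cells holding other cell types' markers. For IMQ+SHP099 against Sham (17) they were 299, 751, 74, 32 and 27 under the first 5 of these settings, 9 in members with both genes and 7 at a threshold of 5 cp10k. For IMQ+SHP099 against IMQ (0) no filter gave 75. The difference between populations (54) was 162 with DESeq2, 66 against all other fibroblasts (22 of them shared with the 54) and 395 with no filter. For IMQ+SHP099 against IMQ (0) that difference was 1 with DESeq2, 1 against all other fibroblasts and 5 with no filter. Leaving out 1 library gave 0 to 149, 0 to 41 and 0 to 2 genes for IMQ against Sham, IMQ+SHP099 against Sham and IMQ+SHP099 against IMQ, and 0 to 94 and 0 to 1 for the differences between populations. A lone library of a group was assumed to vary like the other groups. The 48 named results kept their side of the threshold in 519 of 766 alternatives, lost it in 247 and reversed in 0.

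The share of fibroblasts differed between IMQ and Sham by −7.67 to 26.9 points over single libraries left out, below 0 without Sham replicate 2 only. Between IMQ+SHP099 and IMQ the range was −9.98 to 8.92 points, it was 3.41 without IMQ replicate 2, and it turned positive at a threshold of 5 cp10k (0.159), after thinning to 3000 UMIs (0.367) and among kept cells under the keratin limit (2.10).

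A block for the replicate number gave 243 for IMQ against Sham, 105 for IMQ+SHP099 against Sham and 0 for IMQ+SHP099 against IMQ. Deviations of same-numbered libraries correlated at −0.055, 0.152 and 0.050 over genes. As only 1 of these 3 exceeded 0.1, the numbers were not taken to pair the libraries, which does not show that nothing is shared. Fibroblasts were a larger part of kept cells in replicate 2 of each group (12.6% and 42.2%, 43.7% and 57.3%, 21.2% and 59.3%). With n = 2, no exact permutation p could go below 0.333, and genes seen with few UMIs in Sham have wide intervals.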

Other observations

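Other cell types left traces in the members that differed between libraries. The 5 pericyte markers summed to 27.3, 619, 109, 41.0, 22.0 and 23.6 CPM, with Sham replicate 2 highest, and the 4 erythroid markers to 4.27, 8.76, 126, 241, 0 and 36.8 CPM. Myeloid markers summed to 33.6 to 129 CPM and lymphocyte markers to 1.20 to 10.2 CPM, with the B cell gene Ms4a1 at 0 in all 6 libraries. Without members holding over 10 cp10k of another cell type's markers, edgeR called 92 genes between IMQ and Sham in place of 42. The interferon-stimulated list then had a median log2 fold change of −1.77 with 5 of 20 genes lower, and the IL-17 and acute-phase list 1.36 with 5 of 16 higher. RNA below that limit in the remaining cells was not removed.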
